A study of Mus musculus with 3 samples.

Results

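Lag3, Havcr2, Tigit and Cd160, which encode inhibitory receptors of T cells, and Tox, which encodes a nuclear factor tied to sustained stimulation of T cells, were followed in sorted CD4+ T cells of kidney and spleen. The 5 genes were taken by symbol from the 32285 gene rows of the kidney and spleen matrices, and each symbol stood in 1 row of each matrix. The tested mice, called KO here, carried loxP-flanked Ezh2 and the Cre transgene CD4-Cre/ERT2, which the Cd4 promoter drives and tamoxifen switches on, and the control mice, called WT, carried the same floxed Ezh2 without Cre (Ezh2fl/fl). Both had the lupus-prone MRL/lpr background, in which the death receptor Fas is defective and T cells accumulate, and both received tamoxifen by gavage at 300 mg/kg, from 10 or 14 weeks of age to 24 weeks of age. The labels give 6 generations of backcrossing, and which mice began at which age is not stated in them. WT therefore stands for floxed, tamoxifen-treated mice and not for an unmodified strain, and each cell's recombination was not read.

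Counts were summed over the cells of each mouse and organ for 2 KO mice (KO1 and KO2) and 3 WT mice (WT1 to WT3), so each mouse gave a kidney and a spleen value. The 10 sums held between 900068 UMIs (kidney of KO2) and 10102765 UMIs (spleen of WT1), from 219 to 2386 cells, and no cell barcode was shared between them. All 6 CD4 T cell markers were detected in all 10, and summed to between 2931 and 3097 CPM in KO and 3650 and 3913 CPM in WT kidneys, and to between 3460 and 3831 CPM in KO and 4469 and 4672 CPM in WT spleens. The 5 kidney tubule markers summed to between 0.346 and 2.22 CPM in KO kidneys, with 4 of 5 at 0, and to between 20.9 and 516 CPM in WT kidneys. The 6 B cell markers summed to between 155 and 169 CPM in KO and 314 and 350 CPM in WT kidneys. The 6 markers of CD8+, gamma-delta and NK cells summed to between 201 and 213 CPM in KO and 40.9 and 113 CPM in WT kidneys, with Ncr1, the NK cell receptor, at 0 in all 5. Cells with a Cd8a or Cd8b1 UMI, called CD8 cells here, made up 11.7% and 16.0% of KO kidney cells and 4.60%, 3.48% and 2.64% of WT kidney cells. The part of tubule and B cells in the kidney results was not tested apart from that of CD8 cells. Values without CD8 and other cells leave out CD8 cells and cells with at least 2 UMIs of B cell, myeloid or tubule markers, between 22.6% and 46.5% of the cells of a sum. That cut keeps the shallower cells. In the WT2 spleen, where CD8 cells were 1.95%, the 493 of 922 cells kept held 1751121 of 4105534 UMIs. Such values are therefore not those of a purified set, and depth and cell type cannot be told apart in them. Ezh2 itself lay between 59.8 and 75.8 CPM in KO and between 90.2 and 159 CPM in WT kidney, and between 51.4 and 53.5 CPM in KO and between 69.9 and 172 CPM in WT spleen. Which Ezh2 exons were floxed is not given in the sources used here, so these reads need not fall in the deleted part. CPM are counts scaled to library size after TMM normalization over the 10 sums, and in such sums fewer cells of a type and less RNA per cell cannot be told apart. The WT mice were unlike each other: in spleen, cells with a UMI of Gzmk, which encodes granzyme K, made up 33.9% of WT1 but 89.3% and 83.2% of WT2 and WT3, and cells with a Foxp3 UMI 18.4% of WT1 but 0.759% and 3.22% of WT2 and WT3. Values without WT1 are therefore given where they differ in call.

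LAG-3 binds MHC class II and other ligands and dampens signals of the T cell receptor. TIM-3, the product of Havcr2, is found on interferon-gamma-producing T cells and binds galectin-9, CEACAM1 and HMGB1, while TIGIT competes with the activating receptor CD226 for the ligand CD155 (Pvr), and CD160 binds HVEM (Tnfrsf14). T cells that meet antigen for a long time come to carry several of these receptors together, a state that in CD8+ T cells depends on TOX; regulatory and follicular helper CD4+ T cells use some of the same genes.

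RefSeq promoter windows on GRCm38.p6, from 250 bases before to 50 bases after a start site, were at hand for 3 of the 5 genes. They are shown because these genes took opposite sides in the spleen, Havcr2 and Tigit lower and Cd160 higher in KO mice. Capitals mark motifs of T cell factors on either strand, which are T-box (GGTGTGA), AP-1 (TGANTCA), RUNX (TGTGGT) and TCF/LEF (TTCAAAG).
Havcr2, chr11:46454681-46454980, plus strand: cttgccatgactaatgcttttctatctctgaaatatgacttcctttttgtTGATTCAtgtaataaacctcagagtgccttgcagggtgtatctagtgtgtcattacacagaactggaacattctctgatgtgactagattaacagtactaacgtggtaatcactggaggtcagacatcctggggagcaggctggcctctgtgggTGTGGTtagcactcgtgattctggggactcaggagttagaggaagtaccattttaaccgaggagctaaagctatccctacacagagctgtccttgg
Tigit, chr16:43664135-43664434, minus strand: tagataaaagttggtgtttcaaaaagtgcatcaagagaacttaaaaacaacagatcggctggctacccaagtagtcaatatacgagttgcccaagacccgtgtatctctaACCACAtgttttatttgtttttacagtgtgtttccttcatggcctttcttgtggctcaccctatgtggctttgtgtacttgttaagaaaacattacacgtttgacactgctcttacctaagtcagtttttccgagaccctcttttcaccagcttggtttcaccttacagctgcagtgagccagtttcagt
Cd160, first window, chr3:96829302-96829601, minus strand: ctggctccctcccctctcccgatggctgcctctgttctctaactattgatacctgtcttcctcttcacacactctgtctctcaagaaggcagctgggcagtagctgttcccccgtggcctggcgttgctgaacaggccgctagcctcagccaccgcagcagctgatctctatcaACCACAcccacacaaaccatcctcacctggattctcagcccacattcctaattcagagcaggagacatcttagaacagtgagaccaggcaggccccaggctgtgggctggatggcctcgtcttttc
Cd160, second window, chr3:96814472-96814771, minus strand: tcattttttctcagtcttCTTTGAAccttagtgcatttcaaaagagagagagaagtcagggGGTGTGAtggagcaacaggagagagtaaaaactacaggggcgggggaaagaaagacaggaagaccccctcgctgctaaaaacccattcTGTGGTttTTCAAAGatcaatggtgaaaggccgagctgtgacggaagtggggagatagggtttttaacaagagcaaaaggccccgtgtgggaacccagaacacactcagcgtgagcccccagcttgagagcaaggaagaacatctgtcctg
All 4 windows held a RUNX motif, which 16.8% of all 32851 windows hold. The Havcr2 window held an AP-1 motif at position -200 from the start site, as 7.81% of windows do. The second Cd160 window held a T-box motif at -189 and TCF/LEF motifs at -232 and -93, letters that 3.98% and 5.14% of all windows hold. NFAT letters (GGAAA), found in 61.3% of windows, were counted but not capitalised, and stood at 2 places of the Tigit window and 1 of the second Cd160 window. No marked motif overlapped another. The motifs were chosen with the gene values known, and a match of letters is not a bound site.

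In spleen, Lag3, Havcr2 and Tigit lay lower and Cd160 higher in both KO mice than in every WT mouse, while Tox overlapped. None of the 5 genes passed the test between KO and WT spleen, in which edgeR's quasi-likelihood fit with Benjamini-Hochberg adjustment called 28 of 11698 genes (0.239%) at an adjusted p under 0.05, 24 of them higher (0.205%) and 4 lower (0.0342%). Groups that do not overlap were common, at 39.2% of the genes tested in spleen. The passes given below for other settings of the spleen fit sat among many. Without WT1, 2254 of 11351 genes were called in spleen, and in DESeq2 697 of 11698. Without CD8 and other cells it was 405 of 10733, and with no filter on low counts 340 of 20207. In kidney all 5 genes overlapped between KO and WT, while 30.6% of the genes tested there did not, and none of the 4 genes that could be tested passed, where 0 of 10486 genes (0.00%) were called and 966 had an unadjusted p under 0.05. DESeq2 called 58 genes there. Between kidney and spleen, with genotype as a covariate and no term for the mouse, Cd160 alone passed, while 2665 of 11628 genes (22.9%) were called. Passes given below for other settings of this organ fit also sat among many. With mouse as a block 3715 of 12072 genes were called, without WT1 2712 of 11129 and in DESeq2 2786 of 11628.

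**Figure D1:**
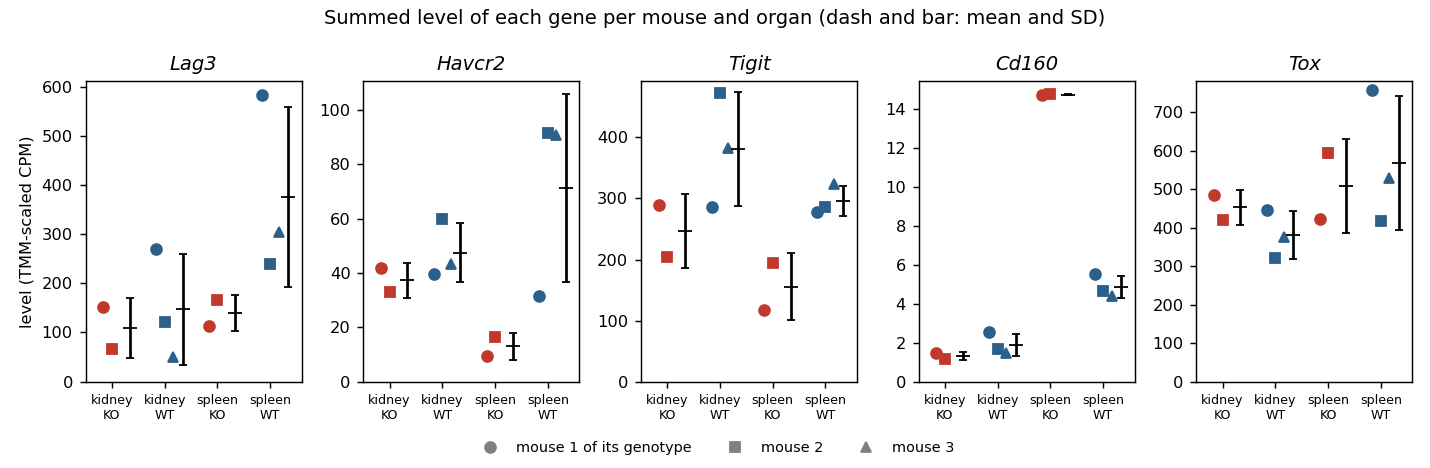
Level of each gene in TMM-scaled CPM (vertical axes from 0) per mouse, for kidney and spleen of KO (red) and WT (blue) mice; the dash and bar give the mean and SD of 2 KO or 3 WT mice. Spleen Cd160 is near 14.7 CPM in both KO mice and at most 5.50 CPM in WT mice, and spleen Havcr2 is lower in both KO mice than in each WT mouse.

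Lag3 (chr6:124904359-124912434) stood at 113 and 165 CPM in KO spleens and at 584, 240 and 304 CPM in WT spleens. Both KO spleens lay below every WT spleen, and WT1 was the highest of all. The fitted log2 fold change, KO over WT, was -1.41 ± 0.42 (SE; edgeR adjusted p = 0.192), and it passed without WT1 (-0.95, edgeR adjusted p = 0.0162) and in DESeq2 (-1.42, adjusted p = 0.00895). In kidney it stood at 153 and 66.8 CPM in KO mice and at 270, 121 and 49.9 CPM in WT mice. Here the groups overlapped, with a log2 fold change of -0.35 ± 0.68 (SE; edgeR adjusted p = 0.917) that turned to 0.47 without WT1 and to 0.06 without KO2. Kidney Lag3 was below spleen Lag3 in 4 of 5 mice, with ratios of 0.404 in KO2 and 0.463, 0.506 and 0.164 in the WT mice, against 1.35 in KO1. The organ difference was a log2 fold change of -0.95 ± 0.46 (SE; edgeR adjusted p = 0.161), and with mouse as a block, since both organs come from the same animals, it was -1.09 and passed (edgeR adjusted p = 0.0353).

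Lag3 lies beside Ptms, which encodes parathymosin and lies 1240 bases away, and it lies 16111 bases from Cd4. Cells with a Lag3 UMI had more Ptms than the other cells of their sum in 10 of 10 sums. In spleen, Ptms stood at 376 and 379 CPM in the Lag3-detected cells of KO mice, against 88.5 and 103 CPM in their other cells, and at 505, 257 and 339 CPM in the Lag3-detected cells of WT mice, against 196, 98.3 and 92.4 CPM in their other cells. Cd4 was also higher in Lag3-detected cells of all 5 spleens, by less, from 358 against 243 CPM in KO1 to 564 against 408 CPM in WT3. In kidney the order of Cd4 differed between mice. It stood at 241 and 207 CPM in the Lag3-detected cells of KO kidneys, against 264 and 219.8 CPM in their other cells, and at 467, 389 and 434 CPM in the Lag3-detected cells of WT kidneys, against 306, 298 and 334 CPM in their other cells. Over the 10 sums the Lag3 level correlated with that of Ptms at r = 0.898, the ninth-highest of 12071 genes, and with Cd4 at r = 0.400. Both points of a mouse share an animal and libraries differ in depth, so these correlations are descriptions.

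Havcr2 (chr11:46454931-46481255), whose promoter window is shown above, stood at 9.49 and 16.6 CPM in KO spleens and at 31.5, 91.5 and 90.9 CPM in WT spleens. Both KO spleens were below WT1, which in turn was far below WT2 and WT3. The log2 fold change in spleen was -2.41 ± 0.56 (SE; edgeR adjusted p = 0.124), about 0.188 of the WT level, and it passed without WT1 (-2.78, edgeR adjusted p = 0.000851), in DESeq2 (-2.43, adjusted p = 0.000118), with no filter on low counts (-2.42, edgeR adjusted p = 0.0231) and without CD8 and other cells (-3.80, edgeR adjusted p = 0.0451). In kidney, KO mice held 41.8 and 32.8 CPM and WT mice 39.6, 59.7 and 43.2 CPM. The kidney groups overlapped and the log2 fold change was -0.28 ± 0.23 (SE; edgeR adjusted p = 0.708). Without CD8 and other cells it was -1.40 (edgeR adjusted p = 0.321). In kidney cells without a CD8 UMI, Havcr2 stood at 13.3 and 17.3 CPM in KO mice and at 31.6, 52.0 and 41.5 CPM in WT mice, with no overlap, and CD8 cells held 145 and 77.3 CPM in KO and 93.1, 161 and 60.1 CPM in WT kidneys. This split was chosen after the values were seen and carries no test. The share of all genes without overlap was not computed for it, and was 30.6% over all kidney cells.

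Kidney Havcr2 was above spleen Havcr2 in both KO mice, with kidney over spleen ratios of 4.40 in KO1 and 1.98 in KO2. In WT mice the ratio was 1.26 in WT1 and below 1 in WT2 and WT3, at 0.653 and 0.475. Of the 113 Havcr2 UMIs in the KO1 kidney 82 were in CD8 cells, and cells without a CD8 UMI held 13.3 and 17.3 CPM in KO kidneys against 6.89 and 11.4 CPM in KO spleens. The genotype effect in kidney minus that in spleen was 2.11 ± 0.65 on the log2 scale (SE; edgeR adjusted p = 1.00), in a fit that called 0 of 12072 genes (0.00%). In that fit 487 genes had an unadjusted p under 0.05, and DESeq2 called 6. Over both genotypes the kidney over spleen log2 fold change was 0.15 ± 0.44 (SE; edgeR adjusted p = 0.851) and turned to -0.28 without KO1 and -0.02 without KO2.

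The granzyme K cells gave a closer view of Havcr2. Cells with a Gzmk UMI made up 6.12% and 13.4% of KO spleen cells and 33.9%, 89.3% and 83.2% of WT spleen cells. Within them Havcr2 stood at 83.4 and 98.9 CPM in KO spleens and at 53.5, 100.1 and 103 CPM in WT spleens. The KO values lay inside the WT range, unlike the sums over all cells. Among spleen cells without a Gzmk UMI, Havcr2 was at 3.68 and 4.26 CPM in KO mice and at 24.3, 48.8 and 39.3 CPM in WT mice. Outside the gate both KO values lay below every WT value, and the gate itself held a smaller share of the KO cells. Cells outside it can include cells whose Gzmk transcripts were not caught. Summed Gzmk was 31.6 and 76.9 CPM in KO and 195, 1080 and 1004 CPM in WT spleens, so these cells need not be alike between genotypes. With at least 2 Gzmk UMIs as the gate, Havcr2 inside it was 138 and 110 CPM in KO spleens and 58.9, 102 and 102 CPM in WT spleens. In kidney the gate held 13.9% and 22.4% of KO cells and 24.9%, 87.6% and 78.2% of WT cells. Within it, kidney Havcr2 stood at 142 and 96.8 CPM in KO mice, above the 80.3, 59.8 and 47.2 CPM of WT mice. CD8 cells, 11.7% and 16.0% of KO but at most 4.60% of WT kidney cells, were not taken out of this gate. They held 82 of the 113 Havcr2 UMIs of the KO1 kidney and 16 of the 28 of the KO2 kidney. Their part inside the gate was not counted. These gates are descriptions with no test, in CPM of the gated cells' own totals. The share of all genes without overlap was not computed inside or outside them. None of 14 B cells (at least 2 B cell marker genes and no CD3 UMI) had a Gzmk or Havcr2 UMI, which allows a share of up to 21.4%, at a median depth of 4501 UMIs against 3395 UMIs in the other cells. Of the other cells 47.2% had a Gzmk UMI and 9.52% a Havcr2 UMI, so for Havcr2 these B cells could not show a lower share.

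**Figure D2:**
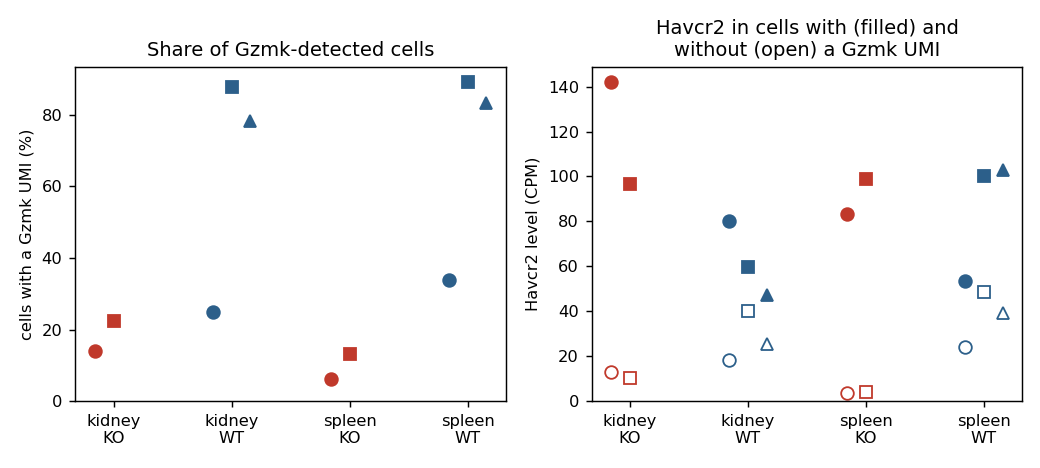
Left, share of cells with a Gzmk UMI per mouse (percent); right, Havcr2 level in CPM of cells with (filled) and without (open) a Gzmk UMI; KO in red, WT in blue, marker shapes for mice 1 to 3. In spleen the filled points of KO (83.4 and 98.9 CPM) lie within the WT range, and the open points of KO lie below those of WT.

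Tigit (chr16:43626137-43665125) stood at 117 and 194 CPM in KO spleens and at 277, 285 and 323 CPM in WT spleens. Every KO spleen was below every WT spleen, and the WT values were close together. The log2 fold change was -0.90 ± 0.23 (SE; edgeR adjusted p = 0.150), and it passed without WT1 (-0.96, edgeR adjusted p = 0.0240), in DESeq2 (-0.91, adjusted p = 0.00688) and without CD8 and other cells (-1.61, edgeR adjusted p = 0.0470). In kidney, KO mice held 289 and 204 CPM and WT mice 287, 473 and 382 CPM. KO1 lay within the WT range there, and the log2 fold change of -0.58 ± 0.24 (SE) had an edgeR adjusted p of 0.537. Kidney was above spleen in each mouse, with ratios of 2.47 and 1.05 in the KO mice and 1.03, 1.66 and 1.18 in the WT mice. The organ difference, a log2 fold change of 0.49 ± 0.18 (SE), missed the threshold (edgeR adjusted p = 0.0709) and passed without WT1 (0.58, edgeR adjusted p = 0.0271) and in DESeq2 (0.49, adjusted p = 0.0329).

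Cells with a UMI of Foxp3, the defining factor of regulatory T cells, had more Tigit than the other cells of their spleen in 4 of 4 mice with at least 30 such cells (KO1, KO2, WT1 and WT3), at 414 ± 90.2 CPM against 197 ± 112 CPM (SD, n = 4). Such cells made up 13.2% and 22.2% of KO spleen cells and 18.4%, 0.759% and 3.22% of WT spleen cells. The KO shares were above those of WT2 and WT3, and the summed Tigit level of KO spleens was below theirs. Cells with a Gzmb UMI, which encodes granzyme B, also had more Tigit in 5 of 5 spleens, at 405 ± 57.9 CPM against 233 ± 81.3 CPM in the other cells (SD, n = 5).

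Cd160 (chr3:96798763-96829351) went the other way and was scarce. It stood at 14.7 CPM in each KO spleen and at 5.50, 4.68 and 4.40 CPM in WT spleens, from 79 and 97 UMIs in KO and 62, 20 and 36 UMIs in WT mice. Both KO spleens were well above all WT spleens. The log2 fold change was 1.61 ± 0.21 (SE), a 3.05-fold level with an edgeR adjusted p of 0.0635, which passed without WT1 (1.71, edgeR adjusted p = 0.00435), in DESeq2 (1.60, adjusted p = 0.000289) and with no filter on low counts (1.59, edgeR adjusted p = 0.0183). In kidney it had 4 and 1 UMIs in KO mice and 16, 10 and 5 UMIs in WT mice, and it did not pass the filter on low counts, so no difference was detectable at this depth. Those counts are 1.48 and 1.17 CPM in KO and 2.54, 1.70 and 1.47 CPM in WT kidneys, an overlap.

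Cd160 fell in kidney relative to spleen, with a log2 fold change of -1.94 ± 0.36 (SE; edgeR adjusted p = 0.00399), among 1185 genes called lower (10.2%). Each mouse had less in kidney, with kidney over spleen ratios of 0.101 and 0.0795 in KO mice and 0.462, 0.364 and 0.334 in WT mice. All alternatives run for this fit, which were DESeq2, RLE scaling, no filter, 3 choices of cells, each mouse left out and mouse as a block, kept this call, with log2 fold changes between -2.25 and -1.64. The genotype effect in kidney minus that in spleen was -2.07 ± 0.51 on the log2 scale (SE; edgeR adjusted p = 1.00), and its kidney side rests on the 4 and 1 UMIs of the KO mice.

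Cd160 is a known gene of CD8+ T, gamma-delta T and NK cells, and the split by Cd8a or Cd8b1 UMIs was chosen after the values were seen. CD8 cells made up 4.53% and 9.11% of KO spleen cells and 3.39%, 1.95% and 1.96% of WT spleen cells. Cells without a CD8 UMI, which can include CD8+ cells whose CD8 transcripts were not caught, held 15.0 and 15.2 CPM of Cd160 in KO spleens, against 5.74, 4.83 and 4.20 CPM in WT spleens. These CPM are of the cells' own totals, without TMM scaling, and are not to be set against the levels over all cells. Summed markers of CD8+, gamma-delta and NK cells lay between 33.3 and 77.5 CPM in KO and between 22.0 and 47.4 CPM in WT spleens. Spleen cells with a UMI of Cxcr5, the homing receptor of follicular helper cells, held 45.7 and 28.4 CPM in KO mice, against 12.6 and 13.7 CPM in the other KO cells, from 17 and 21 UMIs. In WT mice the same gate held 4.71, 5.15 and 4.47 CPM, against 6.62, 4.73 and 4.47 CPM in the other WT cells. The Cxcr5 gate was thus high in Cd160 in KO spleens, and in WT spleens it was close to the rest.

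Tox (chr4:6686353-6991557) overlapped between genotypes in both organs. It stood at 422 and 594 CPM in KO spleens and at 758, 416 and 528 CPM in WT spleens, and at 484 and 421 CPM in KO kidneys and 447, 322 and 376 CPM in WT kidneys. WT1 was the highest spleen and WT2 the lowest kidney. The log2 fold change was -0.14 ± 0.29 in spleen (SE; edgeR adjusted p = 0.833), turning to 0.12 without WT1, and 0.28 ± 0.17 in kidney (SE; edgeR adjusted p = 0.632). Kidney Tox was below spleen Tox in 4 of 5 mice, with ratios of 1.15 and 0.708 in KO mice and 0.589, 0.773 and 0.712 in WT mice. The organ difference of -0.41 ± 0.18 (SE; edgeR adjusted p = 0.123) passed with mouse as a block (-0.39, edgeR adjusted p = 0.0404).

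**Figure D3:**
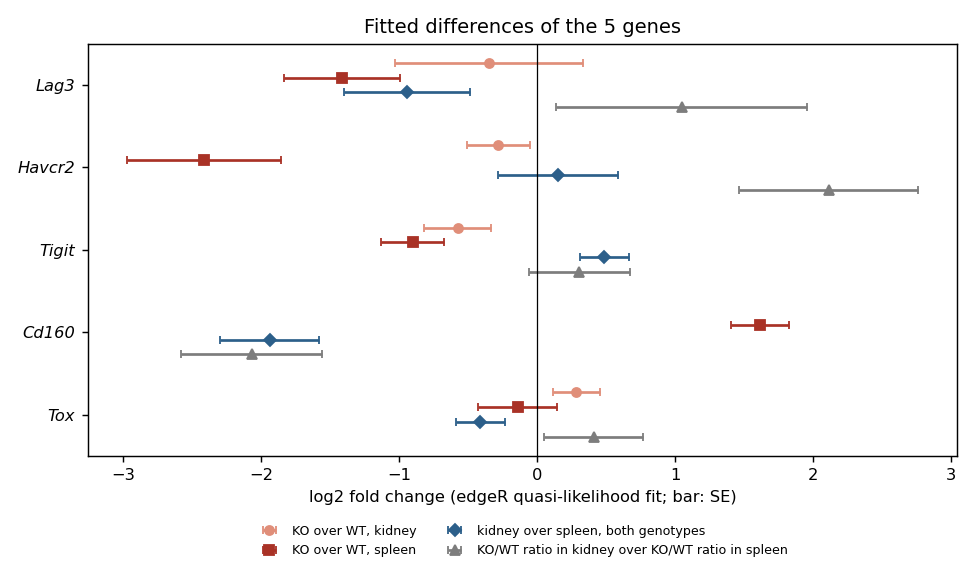
Fitted log2 fold change (horizontal axis) with its SE for each gene in 4 comparisons: KO over WT in kidney, KO over WT in spleen, kidney over spleen, and the KO over WT ratio of kidney against that of spleen. Lag3, Havcr2 and Tigit are below 0 and Cd160 is at 1.61 in spleen; Cd160 has no kidney value because it did not pass the filter on low counts.

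The number of receptors per cell was counted after thinning each cell to 2000 UMIs, which left out 1306 of 13337 cells. At least 2 of the 4 receptor genes were detected in 6.15% and 11.9% of KO spleen cells and in 26.1%, 21.9% and 22.5% of WT spleen cells. The KO mean of 9.01% was 14.5 percentage points below the WT mean of 23.5%, and every KO value was below every WT value (exact two-sided permutation p = 0.1, the smallest that 2 against 3 mice allow; 0.167 adjusted over 4 tests). In kidney the share was 8.62% and 5.47% in KO mice and 12.8%, 13.8% and 7.74% in WT mice. KO1 lay above WT3 there, and the exact two-sided permutation p was 0.3. Without CD8 and other cells, the kidney share was 4.36% and 2.21% in KO mice and 8.53%, 11.4% and 7.13% in WT mice, with no overlap (exact two-sided permutation p = 0.1, the smallest possible). Before thinning, the shares were 9.21% and 17.4% in KO and 38.6%, 36.1% and 31.5% in WT spleens, and 15.2% and 9.13% in KO and 21.3%, 22.8% and 15.1% in WT kidneys.

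Kidney cells had fewer co-detected receptors than spleen cells in 4 of 5 mice, at 9.68 ± 3.49% against 17.7 ± 8.34% (SD, n = 5; exact paired permutation p = 0.125). In KO1 the order was the other way. The kidney minus spleen difference was -1.96 ± 6.28 percentage points in KO mice (SD, n = 2) and -12.1 ± 3.50 percentage points in WT mice (SD, n = 3; exact two-sided permutation p = 0.1, the smallest possible). Cells with all 4 receptor genes were 4 in all, each of them from WT spleens.

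**Figure D4:**
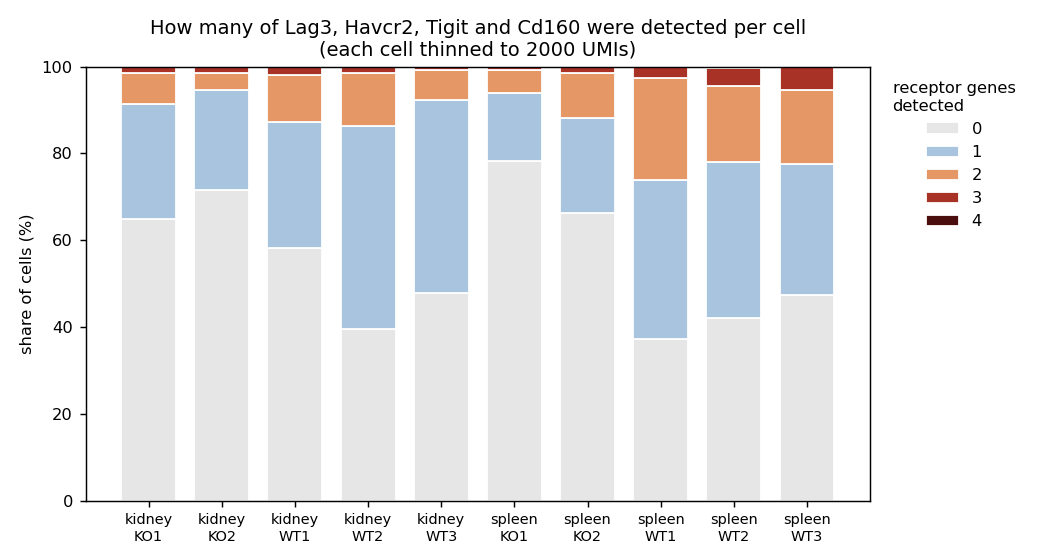
Share of cells (percent, stacked to 100) with 0, 1, 2, 3 or 4 of the 4 receptor genes detected after thinning to 2000 UMIs, for each kidney and spleen. Cells with 2 or more make up 6.15% and 11.9% of KO spleens and at least 21.9% of each WT spleen.

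Lag3 with Tigit was the most frequent pair. It alone made up 66.2% of the 68 KO kidney cells with 2 or more receptors, 62.8% of 435 WT kidney cells, 72.0% of 246 KO spleen cells and 67.0% of 1169 WT spleen cells. The triple of Lag3, Havcr2 and Tigit made up 17.6% of KO and 11.5% of WT kidney cells and 8.94% of KO and 15.8% of WT spleen cells. Lag3 and Havcr2 met in 83 kidney cells, 2.54 times the number that the product of their shares within each mouse gives, and in 289 spleen cells, 1.97 times. For Lag3 with Tigit the ratios were 1.56 in kidney and 1.54 in spleen, and for Havcr2 with Tigit 1.42 and 1.70. All of these ratios were above 1 in 5 of 5 mice, and cells of 1 library share their depth limits, so they are given without a test. The ratios pool both genotypes, and both KO mice lay above every WT mouse for each of these pairs in both organs. In spleen, Lag3 with Havcr2 was at 6.54 and 3.44 in KO and 1.44, 1.87 and 2.13 in WT mice. Lag3 with Tigit was at 3.21 and 2.26 in KO and 1.33, 1.41 and 1.60 in WT mice. The KO2 kidney held 3 cells with Lag3 and Havcr2. Such a ratio can rise further where single shares are low, and the order in other gene pairs was not computed. Cd160 met Lag3 in 37 spleen cells, 1.51 times the product, above 1 in 4 of 5 mice.

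Tox was detected more often the more receptors a cell had. In spleen it was found in 36.9% and 41.0% of KO cells with no receptor, in 72.7% and 72.5% of KO cells with 1, and in 74.3% and 80.2% of KO cells with 2 or more. In WT spleens the shares were 58.8%, 40.1% and 40.6% with no receptor, 73.4%, 55.7% and 57.0% with 1, and 77.0%, 59.0% and 70.5% with 2 or more. The order held in each of the 10 sums, kidney included, where cells with 2 or more receptors had Tox in 70.2% and 81.8% of KO cases and in 62.6%, 58.5% and 70.8% of WT cases. The value of KO2 there rests on 11 cells. Among B cells as above, 0 of 14 had a Tox UMI and 2 of 14 had a Lag3 UMI (14.3%, Wilson 95% interval 4.01 to 39.9%), an interval that holds the 31.0% of the other cells.

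Cells that held UMIs of both Ccr7 and Lef1, genes of naive and resting T cells, had less Lag3, Havcr2 and Tigit than other cells. In such spleen cells Havcr2 was at 3.78 ± 3.23 CPM, against 58.1 ± 41.2 CPM in the other cells, Lag3 at 96.8 ± 139 CPM against 359 ± 203 CPM, and Tigit at 97.5 ± 62.8 CPM against 307 ± 56.8 CPM (SD, n = 5 each), and each was lower in 5 of 5 mice. These cells made up 44.4% and 39.2% of KO spleens and 10.2%, 6.07% and 6.24% of WT spleens. In kidney they made up 27.5% and 32.4% of KO cells and 9.82%, 3.48% and 4.65% of WT cells. Their share thus moved with genotype together with the receptors. Without them, the spleen log2 fold changes were -0.89 for Lag3, -1.90 for Havcr2, -0.34 for Tigit and 2.06 for Cd160, and 0 genes passed by edgeR. The share of spleen cells with 2 or more receptors was then 11.0% and 19.3% in KO mice and 28.0%, 23.3% and 24.0% in WT mice, still without overlap.

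Granzyme B-detected cells were richer in Havcr2, at 163 ± 44.2 CPM in Gzmb-detected spleen cells against 32.8 ± 27.4 CPM in the others (SD, n = 5), higher in 5 of 5 mice, and at 118 ± 66.4 CPM against 32.9 ± 12.4 CPM in kidney (SD, n = 4), higher in 4 of 4 mice. Gzmb-detected cells were 2.87% and 3.29% of KO spleens and 7.42%, 34.8% and 14.6% of WT spleens. Lag3 was also higher there in 5 of 5 spleens, at 477 ± 213 CPM against 275 ± 210 CPM (SD, n = 5). Cells with Mki67 or Top2a, genes of dividing cells, had more Havcr2 in 4 of 5 spleens and 4 of 4 kidneys, and Tox differed little, at 638 ± 181 CPM against 564 ± 173 CPM in spleen (SD, n = 5). With at least 2 UMIs as that gate, Havcr2 was higher in 3 of 5 spleens, at 56.3 against 49.5 CPM on average, and in 3 of 3 kidneys.

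**Figure D5:**
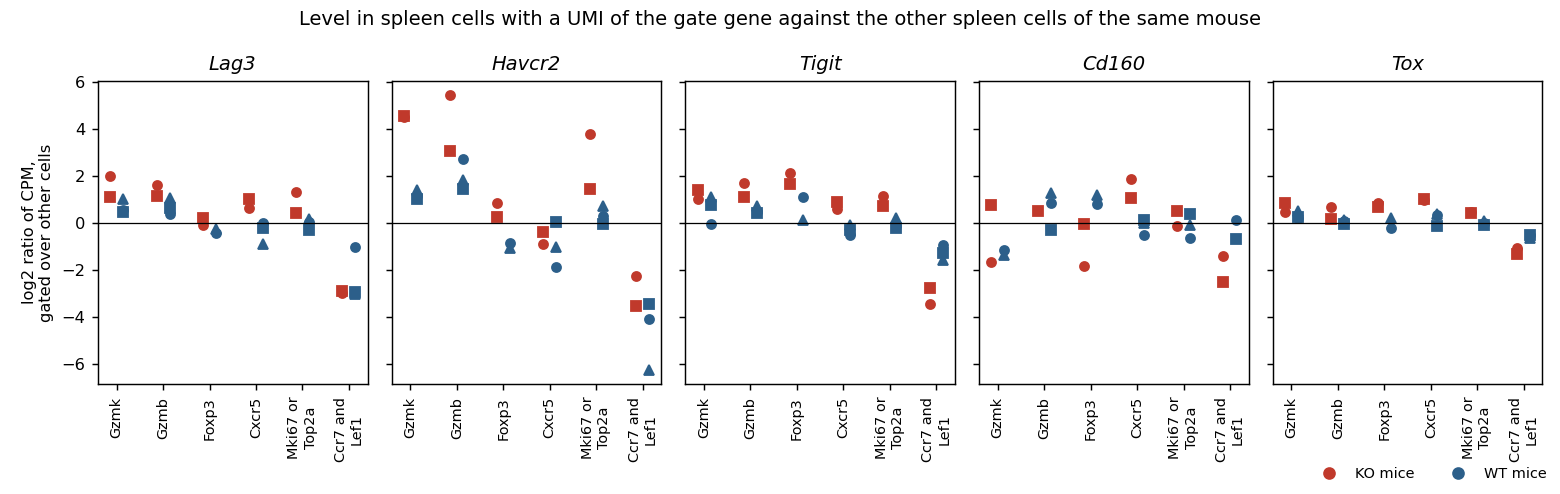
Log2 ratio of CPM in spleen cells inside each gate over the other spleen cells of the same mouse (vertical axis), for 6 gates on the horizontal axis; each point is a mouse, KO in red and WT in blue, and mice without a UMI on either side or with fewer than 30 gated cells have no point. Havcr2 is above 0 for Gzmk and Gzmb in every mouse shown, and Lag3, Havcr2 and Tigit are below 0 for Ccr7 with Lef1.

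Cells with 2 or more receptors differed from cells with none in many genes of the 3 lists below. Of the 11 other coinhibitory receptor genes, 4 were higher in 5 of 5 kidneys and 8 in 5 of 5 spleens, and 0 were lower in 5 of 5 mice of either organ. Of the 19 factors, 9 were higher and 6 lower in 5 of 5 kidneys, and 10 were higher and 2 lower in 5 of 5 spleens. The share of all genes that differ in this way was not computed, so these counts cannot be read as a trait of the lists. Among the receptors, Pdcd1, which encodes PD-1, was 6.20 times as high in them as in cells with none in kidney and 4.73 times in spleen, and Entpd1, the ectoenzyme CD39, 5.08 and 4.38 times. Ctla4 was 2.13 and 2.27 times as high, and Prdm1, which encodes the repressor Blimp-1, 4.84 and 5.35 times. Each was higher in 5 of 5 mice in both organs. Other receptors did not follow. Btla was at 0.347 of the level of cells with none in kidney and 0.893 in spleen, Klrg1 at 0.717 and 0.762, and Cd244a at 0.746 and 1.21. Cd5 differed between organs, lower in 4 of 5 kidneys, at 0.825 of the level, and higher in 5 of 5 spleens, at 1.17 times. Ikzf2, which encodes Helios, was 4.19 and 3.01 times as high, and Foxp3, which is in none of the lists, 2.35 and 2.69 times. Tcf7 and Lef1, factors of naive and memory T cells, were lower in 5 of 5 mice in both organs, Tcf7 at 0.236 of the level of cells with none in kidney and 0.337 in spleen. Nr4a1 and Nr4a3, early genes of T cell receptor signals, were lower in multi-receptor cells of 5 of 5 kidneys, at 0.561 and 0.533 of the level, while Nr4a2 was higher in 5 of 5, at 2.26 times. In spleen Nr4a1 and Nr4a3 were lower in 3 of 5 mice. The comparison is between cells of the same sums, sorted by receptor UMIs, and carries no test.

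Among 11 other coinhibitory receptor genes, all 11 tested, 0 passed between kidney and spleen, and Cd101 came closest (log2 fold change 0.58 ± 0.21, SE; edgeR adjusted p = 0.0740). Their median log2 fold change was 0.07, against -0.04 over all genes. Of 10 tested ligand and partner genes, out of 13 listed, 3 rose in kidney and 0 fell, where 12.7% of all genes tested rose and 10.2% fell, and their median was 0.65. They were Fgl2, a secreted fibrinogen-like protein, at 1.91 ± 0.27 (SE; edgeR adjusted p = 0.000964), Lgals3, the galectin-3 gene, at 1.25 ± 0.30 (SE; edgeR adjusted p = 0.0144), and Pvr, the TIGIT ligand CD155, at 1.12 ± 0.25 (SE; edgeR adjusted p = 0.0103). Lgals3 no longer passed without KO1 (edgeR adjusted p = 0.0640) or without KO2 (edgeR adjusted p = 0.0624). Myeloid and other cells also carry Lgals3 and Fgl2, and summed myeloid markers lay between 141 and 187 CPM in KO and 152 and 216 CPM in WT kidneys, and between 109 and 125 CPM in KO and 122 and 228 CPM in WT spleens; their part in the result was not tested.

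Of 18 tested factors of sustained stimulation, out of 19 listed, 4 rose in kidney and 1 fell, a share near the 22.9% of all genes called, with a median log2 fold change of 0.25. Nr4a3 was at 2.11 ± 0.17 (SE; edgeR adjusted p = 4.0e-05), Tbx21, the T-bet gene of type 1 helper cells, at 1.50 ± 0.30 (SE; edgeR adjusted p = 0.00595), Nr4a2 at 1.12 ± 0.16 (SE; edgeR adjusted p = 0.000966) and Nr4a1 at 1.05 ± 0.20 (SE; edgeR adjusted p = 0.00529). Id3, which encodes an inhibitor of E proteins, fell by 0.75 ± 0.24 (SE; edgeR adjusted p = 0.0451), and missed the threshold without KO1, KO2 or WT3 (edgeR adjusted p from 0.0854 to 0.183). Kidneys were dissociated with enzymes and heat and spleens were mashed, per the labels' protocols, and this cannot be told apart from the organ.

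Between KO and WT, 0 genes of the 3 lists passed in either organ. Within each list, the smallest p in spleen belonged to Eomes among the factors, a T-box factor of cytotoxic T cells, at -2.48 ± 0.28 (SE; edgeR adjusted p = 0.0514), to Entpd1 among the coinhibitory receptors, at -1.75 ± 0.34 (SE; edgeR adjusted p = 0.104), and to Lgals9, the galectin-9 gene, among the partners, at 0.92 ± 0.20 (SE; edgeR adjusted p = 0.119). The medians in spleen were -0.17 for the coinhibitory receptors, 0.40 for the partners and -0.28 for the factors, against -0.01 over all genes and -0.90 over the 5 genes. In kidney the smallest p within each list belonged to Bach2, a repressor that keeps T cells quiescent, among the factors, at 1.41 ± 0.23 (SE; edgeR adjusted p = 0.329), to Lilrb4a among the coinhibitory receptors, at -0.87 ± 0.17 (SE; edgeR adjusted p = 0.421), and to H2-Ab1, an MHC class II gene, among the partners, at -1.79 ± 0.82 (SE; edgeR adjusted p = 0.553). Eomes, Entpd1 and Lgals9 in spleen and Bach2 and Lilrb4a in kidney passed without WT1 (edgeR adjusted p from 0.000529 to 0.0171). In those fits 2254 of 11351 genes were called in spleen and 739 of 10195 in kidney. With all mice kept, DESeq2 passed Eomes (adjusted p = 4.2e-16), Entpd1 (adjusted p = 6.1e-05) and Lgals9 (adjusted p = 0.00488) in spleen and Bach2 (adjusted p = 6.3e-05) in kidney. Without CD8 and other cells, Eomes, Entpd1 and Lgals9 also passed in spleen (edgeR adjusted p from 0.0113 to 0.0497).

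Over the 10 sums, the genes whose log2 levels were most like each member among 12071 were, by Pearson's r, Il10 (0.929), Elk3 (0.917) and Pglyrp1 (0.908) for Lag3, and Ccl5 (0.963), Ptp4a2 (0.958) and Ncald (0.957) for Havcr2. Il10 encodes an inhibitory cytokine and Ccl5 a chemokine of effector T cells. For Tigit they were Bcl2a1b (0.952), Bcl2a1d (0.942) and Il10ra (0.938), of which the first pair are near-identical copies whose reads may be split between them. For Cd160 they were Egr3 (0.956), Cep83os (0.951) and Limd2 (0.948), and for Tox Msi2 (0.949), Lrba (0.942) and Itm2c (0.936). Among the members, Havcr2 and Tigit were the closest pair (r = 0.804), then Lag3 and Tox (0.703), while Tigit and Cd160 ran opposite (r = -0.655). The 10 points are 5 mice with 2 organs each, so no p is given.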

How the data were processed

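The deposited matrices, 1 per organ, hold UMI counts per gene and cell as the authors deposited them, not normalized. Per the file headers they came from Cell Ranger 7.1.0, and the submitters' processing notes also name Seurat 5.0.1 and mm10 (GRCm38). Cells were assigned to mice through the deposited tag key by barcode suffix. The key gives tag sequences and the matrices tag numbers, and the match between them was taken from the key's row order and from how the maker numbers its tags, so each genotype and pairing value rests on that match. The 10 groups of barcodes of the first day, with 13368 cells, were used, 13 cells whose leading tag was another mouse's were dropped, and 13337 cells with at least 200 genes and under 10% mitochondrial counts were kept. Their medians lay between 3187 and 3645 UMIs per cell. No doublet caller was run. Counts were summed per mouse and organ and fitted with edgeR 4.0.16 in R 4.3.3 (quasi-likelihood, TMM, filterByExpr, Benjamini-Hochberg at 0.05). Genotype fits used 1 organ at a time with its own scaling. Printed levels over all cells of a sum used the scaling over all 10 sums, and those of summed markers or chosen cells used no TMM scaling. SE is the log2 fold change divided by the root of F. Alternatives were DESeq2 1.42.0, RLE scaling, no filter, other choices of cells, each mouse left out and a mouse block. Fits were tested on simulated data. Of changes of 1 on the log2 scale, 17% were recovered between genotypes in kidney and 16% in spleen. Between organs it was 66%, and for the interaction 4%. Of changes of 2, 64%, 71%, 85% and 43% were recovered in the same order. A gene that did not pass can therefore still differ. Intervals and floors cover counting error only. Exact permutation over mice served the cell shares. Nothing says that a mouse was sampled more than once within an organ, so genotype p-values within 1 organ measure the spread between mice. The organ and interaction fits as reported held both organs of each mouse and no mouse term. Their p-values therefore ignore the pairing, which the mouse block takes in.

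Kidney and spleen values pair because they come from the same animals. Deviations from the group means correlated between the organs of a mouse at 0.630, 0.575 and 0.242 in WT1, WT2 and WT3, and at 0.0229 in the KO mice, whose deviations mirror each other.

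The members and lists were chosen with earlier results of these data known. Named were the 5 genes, list genes past the threshold (else the smallest p), the 3 genes most like each member, and Ptms and Cd4. Promoter sequences and positions are RefSeq's on GRCm38.p6, where 5 of 5 symbols matched. No column of another sample was used.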

Additional observations from a re-analysis of the deposited data

Results flagged for a closer look

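The second day of the tag key, which entered no comparison, also held signal of the 5 genes. Its 8 groups of barcodes repeat 2399 cells, each listed under several mice and in kidney and spleen alike, so no mouse could be assigned. In these cells, at a median of 3640 UMIs and counted once each, Lag3 stood at 78.5 CPM (exact Poisson 95% interval 73.0 to 84.3), Havcr2 at 13.0 CPM (10.8 to 15.5), Tigit at 147 CPM (139 to 155), Cd160 at 7.29 CPM (5.68 to 9.20) and Tox at 316 CPM (305 to 327). The intervals cover counting error only. These values are CPM of the cells' own total, without TMM scaling, and no cause was tested.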

How the results depend on the processing

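The number of genes called moved with several choices. KO against WT in kidney, 0 genes in the fit as reported, became 58 in DESeq2, 26 with no filter, 4 without CD8 and other cells and 1 without cells with Ccr7 and Lef1, and ran from 0 to 739 when each mouse was left out, 739 without WT1. In spleen, 28 became 697 in DESeq2, 340 with no filter, 405 without CD8 and other cells, 0 without cells with Ccr7 and Lef1 and 91 without cells with Mki67 or Top2a, and ran from 0 to 2254 with a mouse left out, 2254 without WT1 and 0 without any other mouse. Kidney against spleen, 2665, ran from 1484 (without KO1) to 2712, with 1506 without KO2 and 1649 without WT3. The interaction, 0, became 6 in DESeq2 and ran from 0 to 1 with a mouse left out (1 without WT1). With mouse as a replicate block it became 4, and kidney against spleen 3715. The block changed the calls of Lag3 and Tox between organs, as given above, and no other member's. The cause of these shifts was not tested.

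Of 219 member values under alternatives, 190 kept direction and call, 18 newly passed and 11 changed sign, none of them called. Lag3 in kidney turned to 0.06 without KO2 and ran from -1.12 to 0.47 (without WT1) with a mouse left out. Havcr2 in kidney turned to 0.11 without cells with Ccr7 and Lef1, and between organs to -0.30 without CD8 and other cells and ran from -0.28 (without KO1) to 0.53 with a mouse left out, at -0.02 without KO2. Tox in spleen turned to 0.15 without cells with Ccr7 and Lef1, 0.08 without KO1, and ran from -0.41 to 0.12 (without WT1) with a mouse left out. The Tigit interaction turned to -0.0063 without cells with Ccr7 and Lef1 and ran from -0.31 (without KO1) to 0.94 with a mouse left out. H2-Aa in the interaction turned to 0.23 without CD8 and other cells. Of 44 co-detection differences, 43 kept their direction, and the kidney difference between KO and WT turned to 0.027 percentage points with at least 3 of the 4 receptors. Cd160 in kidney, with at most 16 UMIs a mouse, is limited by depth.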
